A study of Homo sapiens with 4 samples.

Results

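Zinc finger genes that the authors listed as up or down after knockdown of PCAF were examined in HCT116, a long-established cell line from a human colorectal carcinoma. Members were those probe sets of the authors' deposited table whose symbol is ZNF, ZFP, ZBTB, ZSCAN, ZKSCAN, KLF or EGR followed directly by a number. This gave 20 of the 759 probe sets in the table, each with a single symbol, out of 33297 probe sets on the array. The table itself holds 2.28% of all probe sets. The array measured total RNA of asynchronously growing cells carrying a control shRNA (shControl, 2 arrays, wild-type by label) or an shRNA against PCAF (shPCAF, 2 arrays, PCAF knock-down by label). No other treatment or allele is given in the labels. PCAF, now KAT2B, is a lysine acetyltransferase that acts as a transcriptional coactivator.

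Zinc finger transcription factors hold a chain of small folds, each pinned by a zinc ion, that read DNA bases, and they form the largest family of human transcription factors. Many carry a KRAB domain, which recruits the TRIM28 corepressor and silencing histone methylation, while SCAN and BTB domains let the proteins pair with each other. The Krüppel-like factors (KLF) bind GC-rich and CACCC sequences, and KLF5 is known for its role in the proliferating cells of the intestinal crypt. Not every gene with such a symbol is a transcription factor, and RefSeq lists 2 of the 20 members, ZNF204P and ZNF252P, as transcribed pseudogenes.

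Of the 20 probe sets, 18 were higher and 2, of ZNF480 and ZNF511, were lower in shPCAF cells. The 18 exceeded their shControl level by 1.63-fold to 2.45-fold, with a median log2 difference of 0.86, beside 0.93 over the 522 higher probe sets of the whole table. ZNF480 and ZNF511 were 2.39-fold and 1.73-fold lower. The median over all 20 was 0.85, beside 0.80 over the table and -0.05 over all 33297 probe sets. The members come from a table selected on this same contrast of these 4 arrays, so their directions and sizes are given as a description, without a test.

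All 20 passed limma's moderated test at an adjusted p below 0.05, which 12.9% of all probe sets passed in either direction, 7.05% as higher and 5.85% as lower. On all 20 the arrays of the groups did not overlap, as on 59.1% of all probe sets, of which 23.1% were higher and 36% lower. Nothing is read from these counts, because the table was chosen on the same values. None of the 20 passed limma when either shControl array was left out, nor did any other probe set. The 18 higher and 2 lower members kept those directions in the values of the remaining arrays. That outcome was fixed in advance, because groups that do not overlap keep their order when 1 array is left out. It is no support.

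The smallest gap between the nearest arrays of the groups was 0.56 on the log2 scale, for KLF9, and the widest was 1.18, for ZNF204P. That gap was 2.76 times the wider within-group range for KLF9 and 22.9 times for KLF11, with a median of 7.18 times over the members. Each range rests on 2 arrays, and the members were chosen on these same values. These ratios are therefore descriptions and no support for the separation. The replicates did not lean one way, since shPCAF replicate 1 was above replicate 2 for 9 members and below it for 11, and shControl replicate 1 was likewise above replicate 2 for 9.

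**Figure D1:**
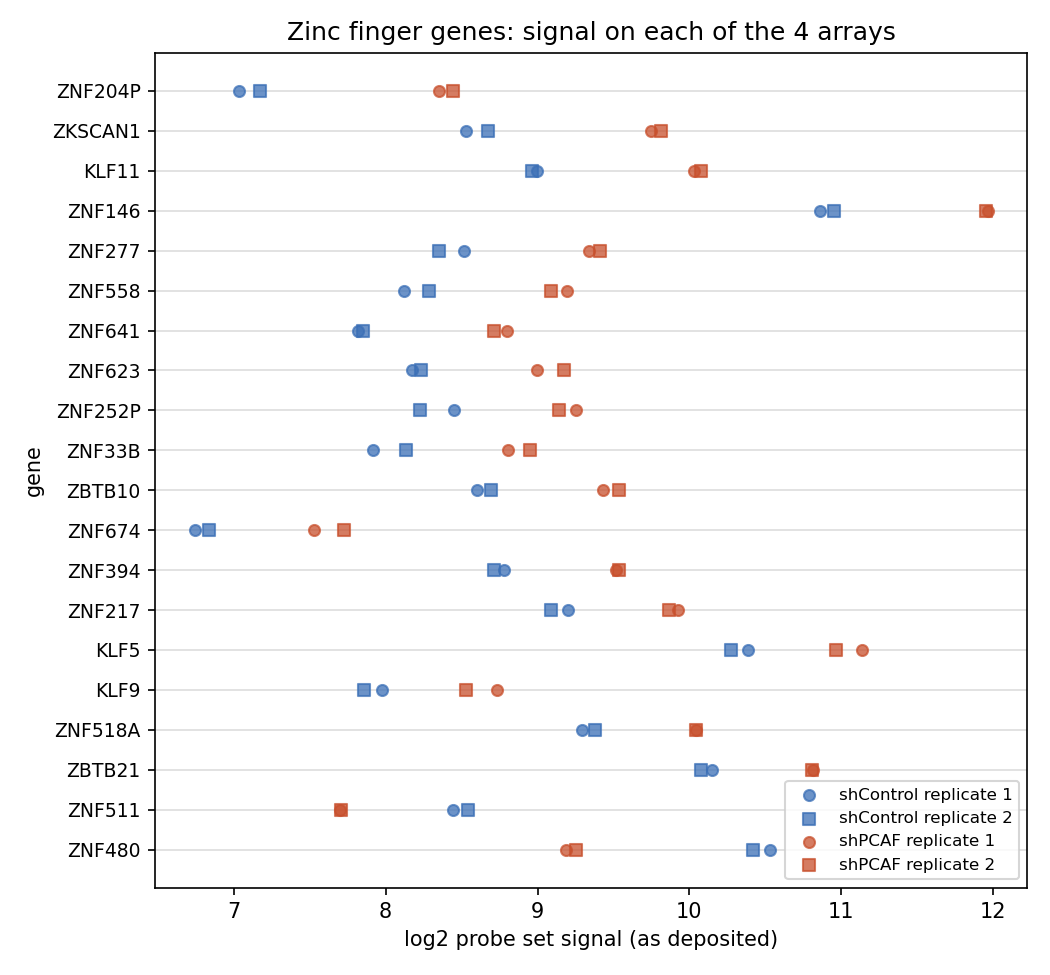
Deposited log2 signal (horizontal axis) of the 20 zinc finger probe sets (vertical axis, ordered by difference) on each of the 4 arrays, with shControl in blue, shPCAF in red, circles for replicate 1 and squares for replicate 2. In the 18 genes from ZNF204P to ZBTB21 both red points lie to the right of both blue ones, and in ZNF511 and ZNF480 to the left.

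Few other checks of the cells were made here. Symbols were taken only from the authors' table, and no other annotation of the array was used. PCAF has no line there, so its level was not analysed here and the knockdown has no check. Of 11 epithelial markers listed, CDH1 and CLDN7 were in the table, with mean shControl log2 signals of 10.31 and 12.00, above those arrays' upper quartiles of 9.20 and 9.23. Both were higher in shPCAF cells, CDH1 by 2.14-fold and CLDN7 by 1.69-fold. Of 6 lymphocyte markers CD22 was in the table, at 7.01 and 6.79 in shControl and 8.33 and 8.55 in shPCAF. Of 8 fibroblast markers ACTA2 was 1.82-fold higher and TAGLN 1.66-fold lower, and no line matched the 4 macrophage or the 4 endothelial markers. The other markers were not analysed here, and the part of these genes in the zinc finger differences was not tested. Fewer expressing cells and less RNA per cell cannot be told apart in bulk RNA. The labels do not say whether replicates were separate cultures, so the spread between arrays may be technical.

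Promoter windows of RefSeq (GRCh38.p14, 250 bases before to 50 after a transcript start) were matched to 14 of the 20 genes, giving 21 windows. ZNF204P, ZNF252P, ZNF394, ZNF480, ZNF623 and ZBTB10 were not matched. The element TGACGTCA is the palindromic cyclic AMP response element bound by CREB and ATF proteins. It occurred in 3 of the 21 windows, in KLF11, ZBTB21 and ZNF511, and in 1.85% of all 35116 RefSeq windows. Its letters include a CG pair, and the members' windows held a median of 24 CG pairs, against 14 over all windows. It was 1 of several motifs searched, so nothing is read from this share. The windows of these 3 genes are shown because KLF11 and ZBTB21 were higher and ZNF511 was lower while holding the same 8 letters, which are in capitals. They lie at chr2:10043971-10044270 (plus strand), chr21:42010311-42010610 (minus strand) and chr10:133308664-133308963 (plus strand).
KLF11: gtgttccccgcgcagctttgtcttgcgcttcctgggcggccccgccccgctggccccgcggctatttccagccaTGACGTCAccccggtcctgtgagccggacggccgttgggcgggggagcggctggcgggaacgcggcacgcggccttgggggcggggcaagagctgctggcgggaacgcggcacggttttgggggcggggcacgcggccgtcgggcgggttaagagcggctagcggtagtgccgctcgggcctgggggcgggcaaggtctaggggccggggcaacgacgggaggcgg
ZBTB21: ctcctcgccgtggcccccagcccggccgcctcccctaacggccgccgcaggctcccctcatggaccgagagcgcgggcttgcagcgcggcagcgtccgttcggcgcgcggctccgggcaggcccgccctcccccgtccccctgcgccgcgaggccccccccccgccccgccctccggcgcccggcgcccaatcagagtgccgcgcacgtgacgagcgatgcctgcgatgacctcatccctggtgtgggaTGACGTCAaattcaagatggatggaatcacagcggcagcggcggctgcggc
ZNF511: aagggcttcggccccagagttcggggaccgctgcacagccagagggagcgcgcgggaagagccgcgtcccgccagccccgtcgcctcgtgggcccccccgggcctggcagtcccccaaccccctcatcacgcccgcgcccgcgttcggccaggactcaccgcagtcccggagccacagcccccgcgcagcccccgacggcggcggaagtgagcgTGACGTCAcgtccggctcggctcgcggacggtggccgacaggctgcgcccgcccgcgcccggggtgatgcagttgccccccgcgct
The first base of the element lies 176 bases before the start in KLF11, 36 bases before it in ZNF511 and 1 base before it in ZBTB21, where the element spans the start. KLF11 has a second RefSeq window, which lacks the element. A match describes letters and does not show that a factor binds there.

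The GC box GGGCGG, a site of SP and KLF factors, was found on either strand in 14 of the 21 windows (66.7%), in 11 of the 14 genes, beside 45.0% of all windows. The shorter CACCC, also read by KLF factors, was in 12 windows (57.1%), beside 59.9%, and CCAAT was in 5 (23.8%), beside 34.6%. The composite element TGATGCAA of C/EBP and ATF proteins was in none of the 21 windows and in 0.866% of all windows. Every search covered both strands, and matches of different motifs may overlap. The members' windows had a median GC content of 63.0%, against 58.7% over all windows, and ranged from 32.7% in KLF9 to 79.7% in ZNF641. KLF9, ZNF146 and ZNF33B had no GC box or CACCC in their windows. Several windows of 1 gene overlap or share a promoter, so they are not independent. All windows together cover 27305 genes, not only protein-coding ones, whereas the 14 matched members are all protein-coding.

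The 3 Krüppel-like factors in the table, of 18 protein-coding KLF genes in RefSeq, were all higher. The table holds 2.28% of all probe sets, and 522 of its 759 probe sets were higher. As the table was selected on this contrast, nothing is read from these counts. KLF11, a TGF-beta-inducible factor that recruits the SIN3A corepressor, had log2 signals of 8.996 and 8.965 with the control shRNA and of 10.03 and 10.08 with the PCAF shRNA. Its difference was 1.07 ± 0.07 (SE) on the log2 scale, or 2.10-fold, and the gap between its groups was the widest of all members relative to their within-group range.
KLF5, the crypt-associated factor, had signals of 10.39 and 10.28 in shControl and 11.14 and 10.96 in shPCAF. KLF9, a factor induced by glucocorticoid and thyroid hormone, was dimmer, at 7.98 and 7.86 in shControl and 8.73 and 8.53 in shPCAF. KLF5 and KLF9 differed by almost the same amount, 0.72 ± 0.09 and 0.72 ± 0.10 (SE), or 1.65-fold and 1.64-fold. In both, shPCAF replicate 1 was the highest array. Members of the KLF family outside the table were not analysed here.

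The 2 BTB members were also higher. ZBTB10, a repressor known for lowering SP-family transcription factors, had signals of 8.60 and 8.69 in shControl and 9.43 and 9.54 in shPCAF, a 1.79-fold difference. ZBTB21, listed under its older symbol ZNF295, had 10.15 and 10.08 in shControl and 10.82 and 10.81 in shPCAF. Its difference of 0.70 ± 0.07 (SE), or 1.63-fold, was the smallest of the members and lay at the lower edge of the table. No line of the table falls below a log2 difference of 0.70, and ZNF518A at 0.71 was next. A further 870 probe sets that the authors did not list had a log2 difference of 0.7 or more in size, so size alone did not decide the listing. They were given no symbol here, so any zinc finger genes among them cannot be named.

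The SCAN-domain members ZKSCAN1 and ZNF394, which also carry a KRAB domain, lie on chromosome 7 and were both higher. ZKSCAN1, known also as the host gene of an abundant circular RNA, had log2 signals of 8.53 and 8.67 in shControl and 9.75 and 9.82 in shPCAF, a difference of 1.18 ± 0.08 (SE), or 2.27-fold. It was the largest positive difference among the protein-coding members. ZNF394, described as a repressor of AP-1 reporter activity, had 8.78 and 8.72 in shControl and 9.52 and 9.54 in shPCAF, or 1.72-fold. The arrays do not separate linear from circular transcripts of ZKSCAN1.

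The 5 further KRAB members went both ways, 4 higher and ZNF480 lower. ZNF480 had log2 signals of 10.53 and 10.42 in shControl and 9.19 and 9.25 in shPCAF, a difference of -1.25 ± 0.08 (SE). It ranked 57 among the 20210 probe sets with a negative difference, the highest rank of any member in its direction. ZNF558, known for repressing the mitophagy gene SPATA18, was 1.92-fold higher, at 8.12 and 8.28 in shControl and 9.19 and 9.09 in shPCAF.
ZNF641, described as acting in MAPK signalling, was 1.90-fold higher, at 7.82 and 7.85 in shControl and 8.80 and 8.71 in shPCAF. ZNF33B was 1.81-fold higher, at 7.91 and 8.13 in shControl and 8.81 and 8.95 in shPCAF. It has a close paralogue, ZNF33A, and a part of its signal coming from that gene was not tested. ZNF674, a gene on the X chromosome, was the dimmest member, at 6.74 and 6.83 in shControl and 7.53 and 7.72 in shPCAF, a 1.79-fold difference. It was the single member whose shControl mean lay below the median of all probe sets.

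The KRAB corepressor machinery could not be followed, since none of 18 listed partners such as TRIM28, SETDB1 and the HP1 genes CBX1, CBX3 and CBX5 is in the table. Absence from the table is not a measurement of these genes. With the SCAN members counted in, 6 of 7 KRAB genes were higher, with a median log2 difference of 0.86. Over all 20 members 18 were higher, with a median of 0.85, so nothing is read from this count.

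The 6 remaining protein-coding members were 5 higher and 1 lower. ZNF146, a protein made almost entirely of zinc fingers and known to be overexpressed in colorectal and pancreatic tumours, had the brightest probe set, at 10.86 and 10.95 in shControl and 11.97 and 11.95 in shPCAF. Its 2.07-fold difference rests on a probe set in the 4201 lowest identifiers, a stretch of identifiers about which the files say nothing. These may be control probe sets, so whether this value measures ZNF146 like an ordinary probe set is not known. Without it 19 members remain, with a median log2 difference of 0.84.
ZNF217, an oncogene amplified in breast and colon tumours whose product works with the CtBP and LSD1 corepressors, had 9.20 and 9.09 in shControl and 9.93 and 9.86 in shPCAF, a 1.68-fold difference. ZNF277, a protein reported to bind the Polycomb factor BMI1, had 8.51 and 8.35 in shControl and 9.34 and 9.41 in shPCAF, a 1.93-fold difference. ZNF518A was 1.63-fold higher, with shControl signals of 9.29 and 9.38 and shPCAF signals that differed by less than 0.01, at 10.05 and 10.04.
ZNF623 was 1.84-fold higher, at 8.17 and 8.23 in shControl and 8.998 and 9.17 in shPCAF. ZNF511, the other lower member, had 8.44 and 8.54 in shControl and 7.70 on both shPCAF arrays, a difference of -0.79 ± 0.07 (SE).

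Both pseudogene members were higher. ZNF204P, on chromosome 6, showed the largest difference of all 20 members, with log2 signals of 7.04 and 7.17 in shControl and 8.35 and 8.44 in shPCAF, which is 1.30 ± 0.08 (SE), or 2.45-fold. It ranked 158 among the 13087 probe sets with a positive difference. ZNF252P, listed as ZNF252, had 8.45 and 8.23 in shControl and 9.25 and 9.14 in shPCAF, or 1.81-fold, with the widest within-group range of the members, 0.22. A pseudogene transcript can share sequence with its coding relatives, and this was not tested. Without both pseudogenes the median log2 difference was 0.84.

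**Figure D2:**
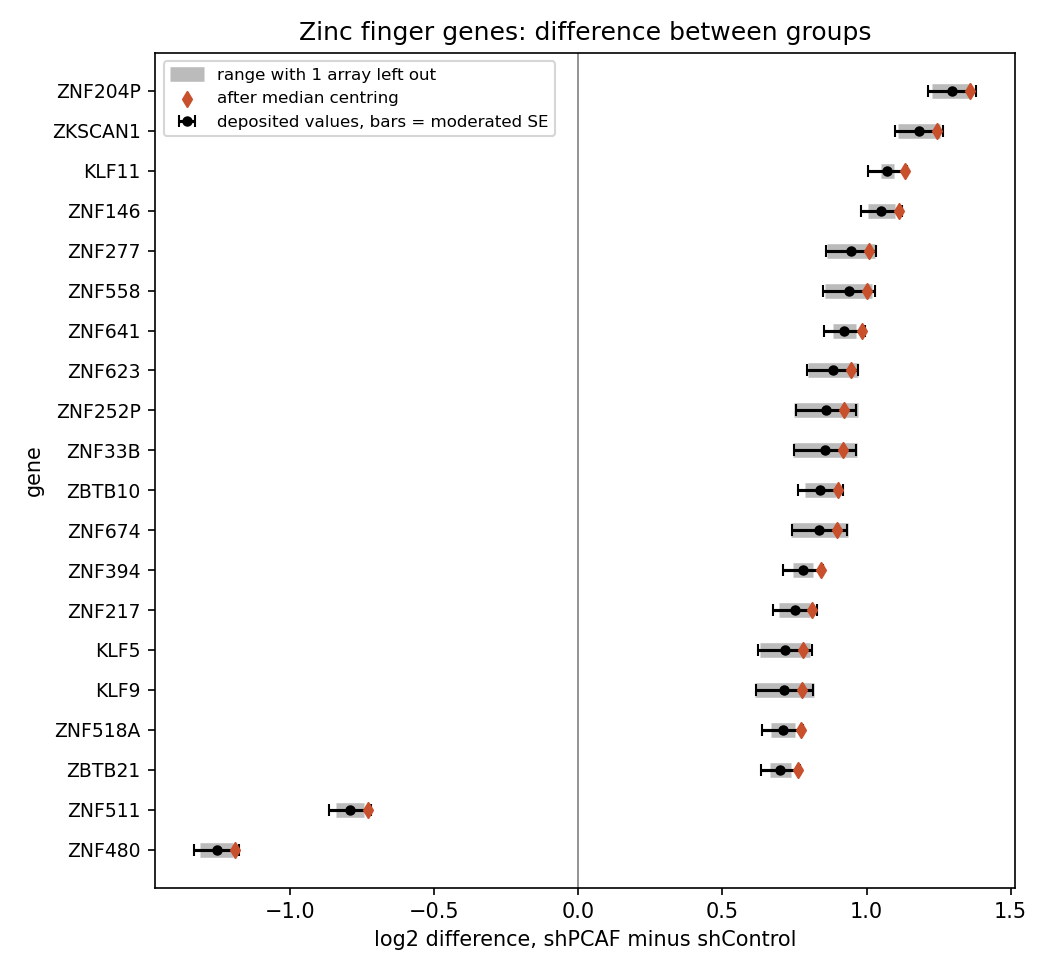
Log2 difference of shPCAF minus shControl (horizontal axis) for each zinc finger gene (vertical axis), with black points and bars for the deposited values and their moderated SE, grey bands for the range when 1 array is left out, and red diamonds for values after median centring of the arrays. The 18 higher genes lie between 0.70 and 1.30 and the 2 lower ones at -0.79 and -1.25. No band reaches 0, which is no support, since the arrays of the groups do not overlap in any member.

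The members lay in the middle to upper part of the signal range. The mean shControl signal of 19 of 20 lay above the median of all probe sets, for 5 of them above the upper quartile, and the members' median was 8.55, beside 7.09 over all probe sets and 9.15 over the table. A log2 difference of 1 or more in size was seen in 5 members, ZNF204P, ZKSCAN1, KLF11, ZNF146 and ZNF480, and in 1.61% of all probe sets. As the members were chosen on these same differences, nothing is read from that count.

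**Figure D3:**
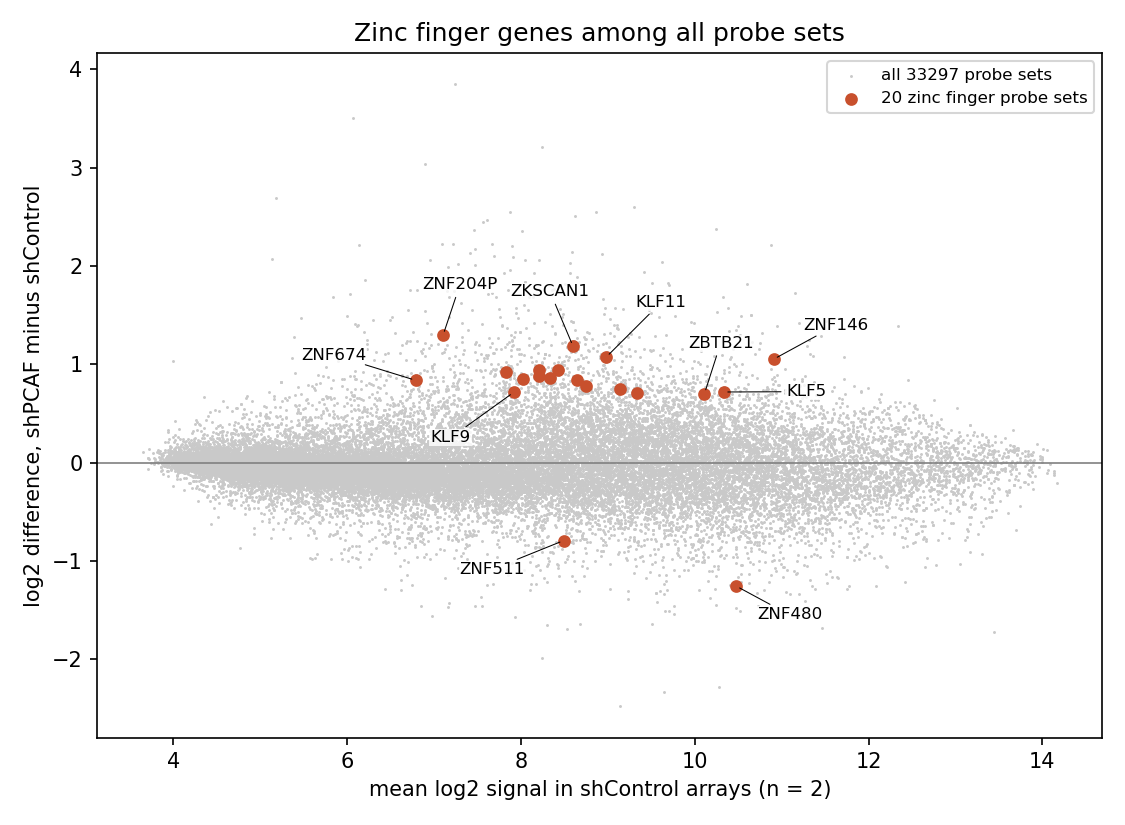
Mean log2 signal in the 2 shControl arrays (horizontal axis) against the log2 difference of shPCAF minus shControl (vertical axis) for all 33297 probe sets in grey and the 20 zinc finger probe sets in red, some of them named. The red points lie at middle to high signal, from 6.79 for ZNF674 to 10.91 for ZNF146, and many grey points lie farther from 0 than they do.

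The 20 members are 2.64% of the probe sets in the table, and the 18 protein-coding ones are 2.37%, while 630 of the 20056 protein-coding RefSeq genes (3.14%) carry such symbols. They made up 3.45% of the table's higher probe sets and 0.844% of its lower ones, and 90.0% of the members were higher, beside 68.8% of the table. ZFP, ZSCAN and EGR had no line. RefSeq holds 21, 21 and 4 coding genes of those names, and the table holds 2.28% of all probe sets, so nothing is read from this absence. These shares are descriptions, since how many zinc finger genes the array measures was not analysed here.

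The members were spread over 12 chromosomes. Chromosome 19, where clusters of KRAB zinc finger genes lie, holds 268 of the 630 such RefSeq genes (42.5%) and 3 of the 18 protein-coding members (16.7%), ZNF146, ZNF480 and ZNF558. No 2 members were immediate neighbours in RefSeq's order of protein-coding genes. Of the 40 adjacent protein-coding genes 13 had such zinc finger symbols, among them ZNF766 and ZNF610 beside ZNF480 and KLF12 beside KLF5. None of the 13 was in the table, which holds 2.28% of all probe sets. Absence from the table is not a measurement of these neighbours, so nothing is read from this count. The single adjacent gene in the table was IFRD1, next to ZNF277 and named here after its values were seen. IFRD1, a transcriptional coregulator, had log2 signals of 8.28 and 8.27 in shControl and 9.68 and 9.73 in shPCAF, 2.69-fold higher, where ZNF277 was 1.93-fold higher.

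Among 85 other zinc finger transcription factors, whose names do not follow the symbol pattern, 2 were in the table and they went opposite ways. The table holds 2.28% of all probe sets. This list and the cofactor list below were chosen with earlier results known, so nothing is read from their counts. RREB1, a Ras-responsive factor, had 8.88 and 8.83 in shControl and 9.57 and 9.60 in shPCAF, 1.67-fold higher. GLI2, an effector of Hedgehog signalling, had 7.99 and 8.18 in shControl and 7.33 and 7.16 in shPCAF, 1.79-fold lower. Of 16 SP, WT1 and KLF or EGR cofactor genes, HCFC1, a chromatin-bound coregulator, was the single entry, with 11.54 and 11.60 in shControl and 10.69 and 10.67 in shPCAF, 1.85-fold lower.

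EGR genes belong to the immediate early response to growth factors, and none was in the table. Of 20 other immediate early and MAPK feedback genes the table held 5, each of them higher, where it holds 2.28% of all probe sets. The list was chosen with earlier results known, so nothing is read from this count. The phosphatase genes DUSP6 and DUSP4 were 2.89-fold and 2.32-fold higher. DUSP6 had 10.19 and 10.33 in shControl and 11.60 and 11.98 in shPCAF. The others were JUN, DUSP5 and SPRY4, with log2 differences of 1.74, 1.57 and 1.11.

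The authors' deposited table lists ZNF204P at 2.78, ZKSCAN1 at 2.53 and KLF11 at 2.29 in its column headed fold change, which is proportional to the log2 difference and is not a fold. It lists the 2 lower members ZNF480 and ZNF511 at 2.68 and 1.69. The smallest p-value among the members in the authors' deposited table is that of KLF11, 0.00137, and the largest is that of ZNF252P, 0.0426, and these p-values carry no stated adjustment.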

How the data were processed

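Signals were analysed as the deposited log2 values of 4 single-colour Affymetrix arrays, with samples grouped by title. The submitters' processing notes name Affymetrix Expression Console and limma without saying what each did. How probe sets were summarized and normalized is not stated there. The log2 scale was read from the range of the deposited values, 3.62 to 14.21. The authors' deposited table gives, per line, a probe set, a symbol, a score headed fold change and a p-value whose test is not named, and the symbols come from it. All 20 members matched a RefSeq gene (GRCh38.p14), 2 of them through a synonym.

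A linear model with group as its one factor was fitted to every probe set (limma 3.58.1 under R 4.3.3, empirical Bayes moderation, nothing filtered), with Benjamini-Hochberg adjustment over all 33297 probe sets at 0.05, and the fit was tested on simulated arrays. Errors marked SE are moderated. Folds are 2 raised to the log2 difference. The members and lists were chosen with earlier results of these data known. Named genes are all members and every gene of 4 companion lists and the marker lists found in the table, with IFRD1 added later. Domain classes are textbook knowledge. The labels do not say whether same-numbered arrays share more than a number, and 2 pairs cannot show pairing. Over all probe sets, the correlation of deviations of same-numbered arrays was 0.25.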

Additional observations from a re-analysis of the deposited data

How the results depend on the processing

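Settings that act on the values gave these medians of the members' log2 difference: 0.82 after quantile normalization, 0.91 after median centring and from 0.80 (without shPCAF replicate 2) to 0.89 (without shPCAF replicate 1) with 1 array left out, beside 0.85 as reported. The medians of 0.91 and 0.80 moved by more than the replicate spread of the members' median signal, and the others did not. The dim filter, the replicate block and the array weights, equal within each group, leave a difference as it is, so 60 of the 180 single-gene values could not move. Leaving out 1 of the 2 arrays of a group cannot shift a single gene's difference by more than its replicate spread. Those values could therefore not be counted as moved either. Among the single-gene values that could, 10 moved by more than the replicate spread, 8 under median centring and 2 under quantile normalization. No single-gene value changed sign, which is no support, since the members were selected for differences of at least 0.7. At an adjusted p below 0.01 (limma) 6 of 20 passed, as did 0.865% of all probe sets. With 1 array left out, from 0 to 20 passed. Without either shControl array that was 0 of 20 and 0 of all probe sets by limma, where an unadjusted p below 0.05 was found for 6848 and 6849. Without shPCAF replicate 1 it was 18, beside 5.81% of all probe sets, and without shPCAF replicate 2 it was 20, beside 7.1%. With the replicate number as a block, 20 passed, beside 13.8% of all probe sets, and the median log2 difference was 0.85. As the members were chosen on this contrast, nothing is read from these counts. Dropping the pseudogenes and counting without the low identifiers (19 passed) were chosen after seeing the data. Restricting to proteins with a C2H2 finger was not run, as no protein sequences were used here. With 2 arrays per group, their number limits the precision, and signal over background was not analysed here.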
